A study of Homo sapiens with 4 samples.

Results

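Heat shock proteins and their co-chaperones were examined in MDA-MB-231 Fluc cells. The set was defined by gene symbol and took the HSP90, HSPA, HSPB, HSPD, HSPE and HSPH genes, the DNAJA, DNAJB and DNAJC genes, the BAG genes BAG1 to BAG6 and the transcription factors HSF1 and HSF2, without pseudogenes and hyphenated symbols. It held 68 of the 13957 rows of the authors' deposited table. MDA-MB-231 is a line of triple-negative breast cancer cells, and the Fluc derivative carries an inserted luciferase gene for imaging. In 2 samples the cells had received 50 μM cordycepin for 2 h, and in 2 samples they had received the vehicle DMSO for the same time. Cordycepin is 3' deoxyadenosine, an adenosine analogue. RNA was sequenced from ribo-depleted, stranded libraries.

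The table gives for each gene 1 mean expression value, a log2 CPM (read counts scaled by library size), together with the authors' own statistics for cordycepin against DMSO. Those statistics were not used, so the effect of the treatment on these genes is not reported. The values below are levels averaged over the samples of the authors' fit. They carry no SD, no group difference can be read from them, and the depth of each library is unknown. As longer transcripts yield more reads, levels of different genes were compared as CPM per kb of the gene length in the table. Over all 13957 rows the median was 5.40 CPM per kb. The mesenchymal gene VIM had a mean level of 270 CPM per kb and the surface marker CD44 had 152. Of 2 epithelial genes, CDH1 had 2.10 CPM per kb, while EPCAM had 5.27, close to the median of all genes. ESR1, the oestrogen receptor gene, was not among the rows analysed here.

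Chaperones bind unfolded or partly folded proteins and prevent them from aggregating. HSP70 proteins, encoded by the HSPA genes, hold and release their clients in a cycle driven by ATP. DNAJ proteins deliver clients to HSP70 and stimulate its ATPase, most BAG proteins and HSPH1 act as nucleotide exchange factors that let the client go, and HSP90 takes over many kinases and receptors at a later step. Some of these genes are expressed at all times, and others are switched on by HSF1 when proteins unfold, or by the unfolded protein response when the endoplasmic reticulum is overloaded. HSF1 acts through heat shock elements, repeats of GAA and TTC in alternating orientation. The ER stress element is a CCAAT box followed at a fixed distance by CCACG.

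Promoters were first examined for these elements, to see which inducible and constitutive genes carry them. RefSeq windows of 300 bases, reaching from 250 bases before the start site to 50 after it, were found for 59 of the 67 member symbols. The heat shock element was searched as the units GAA, TTC and GAA, or TTC, GAA and TTC, with any 2 bases between neighbouring units. These forms are each other's reverse complement and so cover both strands. It was present in 6 of 59 members (10.2%), compared with 0.608% of all 27305 genes with a window. Those with the element were the inducible genes HSP90AA1, HSPD1 and DNAJA1 and the constitutive genes HSP90AB1, HSPA8 and DNAJB6. The sequences are shown 5' to 3' from RefSeq (GRCh38.p14), with the element in capitals, for the 5 genes in which it lies before the start site, so that inducible and constitutive genes can be compared letter by letter.
HSP90AA1, chr14:102087112-102087140, minus strand: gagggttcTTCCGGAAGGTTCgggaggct
HSPD1, chr2:197500062-197500090, minus strand: gcattTTCTGGAAAGTTCTGGAAccgagc
HSP90AB1, chr6:44247770-44247798, plus strand: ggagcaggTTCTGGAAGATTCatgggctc
HSP90AB1, chr6:44247823-44247851, plus strand: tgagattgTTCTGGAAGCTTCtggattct
HSPA8, chr11:123062346-123062374, minus strand: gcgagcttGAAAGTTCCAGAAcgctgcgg
HSPA8, chr11:123062171-123062199, minus strand: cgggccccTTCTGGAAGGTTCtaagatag
DNAJB6, chr7:157336865-157336893, plus strand: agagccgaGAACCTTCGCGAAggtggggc

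The element of HSPD1 consisted of 2 overlapping matches, at positions -245 to -228 from the start site. Its stretch also lies before the start of the HSPE1 gene, at 197500140 on the plus strand, but HSPE1 had no match in its own window. HSP90AA1 had 1 match, at -88 to -76, whereas HSP90AB1 had 2, the nearer one at -112 to -100. HSPA8 also had 2, with the nearer one at -55 to -43. In DNAJA1 the match began 4 bases after the start site. By GENCODE release 44, the stretches of HSP90AA1, HSP90AB1 and DNAJB6 lie within introns of other transcripts of the same gene, and those of HSPD1 and HSPA8 overlap exons of other transcripts. The element was therefore found in 3 of 11 inducible and in 3 of 12 constitutive members with a window, and in none of the 24 members outside the 4 functional lists described below. The inducible and constitutive shares were 27.3% and 25%, so the element in this form did not separate these lists. Only exact matches were counted, so a member without a match may still hold a looser form.

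HSPA1A and HSPA1B, the classical heat-induced HSP70 genes, had no match to the contiguous element in these windows. They did match a gapped form, in which 2 adjacent units are followed or preceded by a further unit after 7 bases instead of 2. The units on both sides of this longer gap had the same orientation, both strands were searched, and the gapped form can overlap the contiguous form. The gapped form was found in 7 of 59 members (11.9%) and in 0.861% of all genes with a window. The other members with it were HSP90AA1, HSPD1, DNAJB6, HSPA4L and DNAJA4. By list, the gapped form was found in 4 of 11 inducible members (36.4%), HSPA1A and HSPA1B among them. It was found in 1 of 12 constitutive members (8.33%) and in 2 of 24 members outside the lists. Both HSPA1 stretches lie outside annotated genes and are shown because the genes are neighbours with almost the same sequence.
HSPA1A, chr6:31815421-31815450, plus strand: ggaggcGAAAACCCTGGAATATTCccgacc
HSPA1B, chr6:31827617-31827646, plus strand: ggaggcGAAACCCCTGGAATATTCccgacc

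The ER stress element, searched on both strands as CCAAT and CCACG with any 9 bases between them, was found in 2 of 59 members (3.39%) and in 0.0916% of all genes with a window. Both were genes of chaperones of the endoplasmic reticulum, HSPA5 (BiP) and HSP90B1 (GRP94). The CCAAT box alone, which is also contained in the ER stress element, was present in 6 of 7 members of the endoplasmic reticulum list with a window, in 35.6% of members and in 39.7% of all genes. The stretches of both genes are shown with the element in capitals. That of HSPA5 lies outside annotated genes, and those of HSP90B1 overlap exons of its other transcripts, the farther one also an exon of the pseudogene TTC41P.
HSPA5, chr9:125241386-125241414, minus strand: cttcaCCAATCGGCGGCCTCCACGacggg
HSP90B1, chr12:103930211-103930239, plus strand: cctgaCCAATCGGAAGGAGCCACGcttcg
HSP90B1, chr12:103930316-103930344, plus strand: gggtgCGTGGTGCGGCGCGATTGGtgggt

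**Figure D1:**
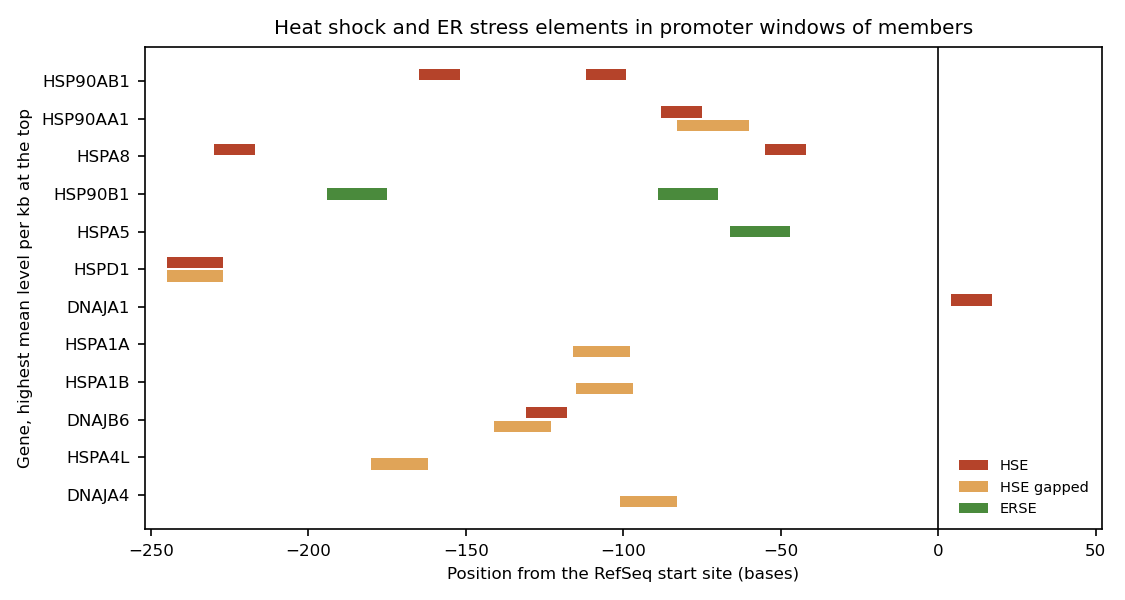
Positions of heat shock elements (HSE, red), gapped heat shock elements (orange) and ER stress elements (ERSE, green) in the promoter windows of members with at least 1 match, in bases from the RefSeq start site, with genes ordered by mean level per kb. HSP90AB1 and HSPA8 have 2 contiguous elements each, HSPA1A and HSPA1B only the gapped form, and DNAJA1 a match 4 bases after the start.

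Levels of members with and without an element were then set side by side. The 6 members with a contiguous heat shock element had a median of 256 CPM per kb, and the 53 members with a window but no such element had 7.97. With the gapped form, the medians were 31.2 CPM per kb for 7 members with it and 8.49 for 52 members without. The range was wide in both cases, from 14.7 CPM per kb for DNAJB6 to 824 for HSP90AB1 with the contiguous element, and from 0.352 for DNAJA4 to 664 for HSP90AA1 with the gapped form. These are descriptions of 6 or 7 genes, and a match shows the letters and not the use of a site. Levels of members with and without a CCAAT box were close, at 9.85 and 9.53 CPM per kb.

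The classes of chaperone were then compared by mean level. All members together had a median of 9.25 CPM per kb against 5.40 for all genes. Of the 68 rows, 44 were above the median of all genes, 14 were in the highest 10% and 4 in the highest 1%. Together they took 1.53% of the summed CPM of the table, and the 5 genes with the highest level per kb accounted for 63.7% of the summed CPM per kb of all members. The levels were thus concentrated in few genes, with a range of 2343-fold from DNAJA4 to HSP90AB1.

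HSP90 genes were the highest class. HSP90AB1, the constitutive cytosolic form, had a mean level of 824 CPM per kb, and HSP90AA1, the inducible cytosolic form, had 664. HSP90B1, the form of the endoplasmic reticulum, had 299.8 CPM per kb. All 3 genes were in the highest 1% of the table. The order of both cytosolic genes rests on the length chosen. HSP90AB1 was 1.24 times HSP90AA1 per kb of gene length, and HSP90AA1 was 1.05 times HSP90AB1 per kb of the longest transcript and 1.38 times without division by length.

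HSPA and HSPH genes had a median of 30.2 CPM per kb over 13 rows and covered almost the whole range. HSPA8, the constitutive cytosolic HSP70, had 314 CPM per kb, HSPA5 of the endoplasmic reticulum 207 and the mitochondrial HSPA9 71.9. HSPA1A had 51.7 CPM per kb and HSPA1B 31.2. HSPA8 was therefore 6.06 times HSPA1A per kb of gene length, 12.7 times per kb of the longest transcript and 12.2 times without division by length. Levels of HSPA1A and HSPA1B depend on how reads common to both were counted, which is not given in the sources used here. Of the 75-base windows of the HSPA1A transcript, 73.8% occur letter for letter in HSPA1B. Their transcripts of 2400 and 2517 bases, aligned end to end, were identical at 92.0% of 2529 positions, with gaps counted as differences. Both genes lie on the plus strand of chromosome 6, HSPA1A at 31815543 to 31817946 and HSPA1B at 31827738 to 31830254 (GRCh38), 9791 bases apart, and both consist of a single exon. With DNAJC30, 3 of 68 members (4.41%) had a canonical transcript of a single exon, compared with 1.89% of the protein-coding rows of the table.

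The other members of this class were below HSPA9. HSPA4, an HSP110-type exchange factor, had 58.1 CPM per kb and its inducible relative HSPH1 had 30.2, while the related HSPA4L had 3.69. HSPA13, a microsomal HSP70, had 16.8 CPM per kb. HSPA14, which associates with ribosomes as part of the ribosome-associated complex, was given in 2 rows. The row of ENSG00000187522 had 13.9 CPM per kb. The row of ENSG00000284024, which overlaps it on the same strand of chromosome 10, had 4.13 CPM per kb, and GENCODE release 44 names that gene MSANTD7. HSPA12A and HSPA12B, distant relatives of HSP70, were at the low end with 0.802 and 0.771 CPM per kb. The place of HSPA12A rests on its gene length of 21113 bases. HSPA12A was 1.04 times HSPA12B per kb of gene length and 3.57 times per kb of the longest transcript. Without division by length it was 7.01 times, with 16.9 against 2.41 CPM.

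HSPD1 and HSPE1 encode the mitochondrial chaperonin HSP60 and its cochaperonin HSP10, which assemble into 1 folding chamber. They are transcribed from the same stretch of chromosome 2 in opposite directions, with start sites 539 bases apart. HSPD1 had 199 CPM per kb and HSPE1 had 42.2. The ratio of 4.73 per kb of gene length was 1.52 per kb of the longest transcript and 10.7 without division by length. In addition, the gene model of HSPE1 in the table, 3310 bases long, lies within that of HSPD1 on the opposite strand, and whether the counting used strand is not given in the sources used here.

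Among the small heat shock proteins, HSPB1 (HSP27) had a mean level of 139 CPM per kb. HSPB11, an intraflagellar transport protein despite its name, had 14.1 CPM per kb. HSPB8, a partner of BAG3 in selective autophagy, had 1.73 CPM per kb. HSPBP1, which binds HSP70 and releases its nucleotide, had 46.1 CPM per kb, and HSPBAP1 had 0.953.

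**Figure D2:**
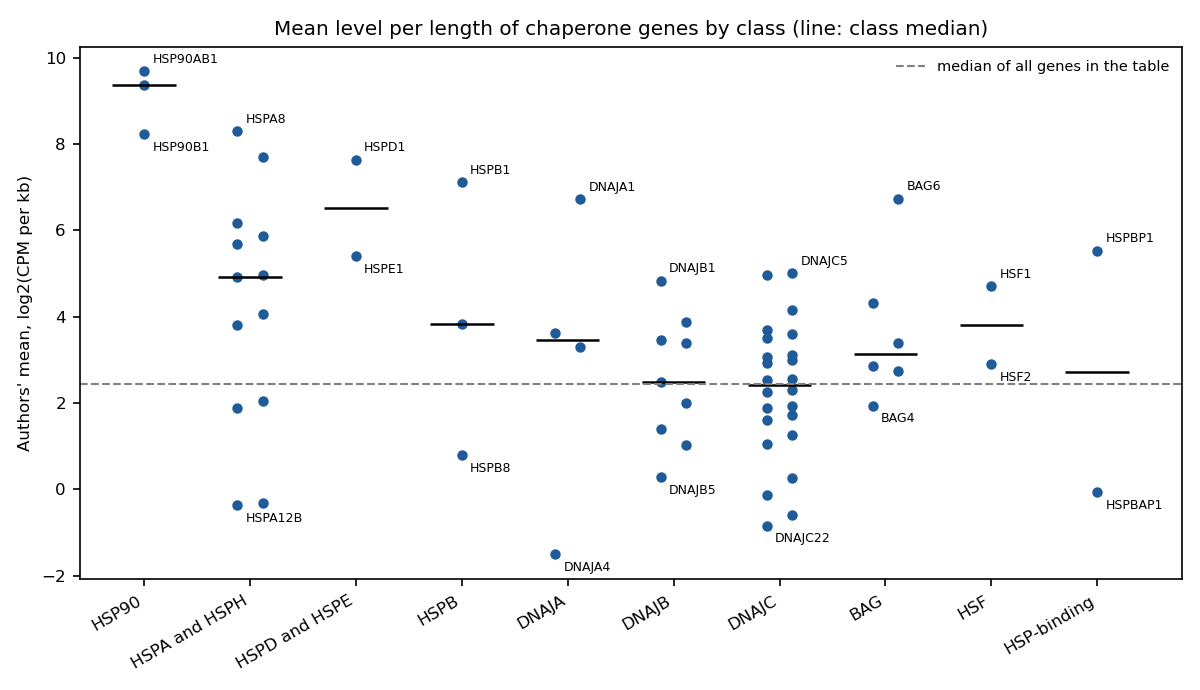
Mean level per length of each member, as log2 of CPM per kb, by class of chaperone. Points are genes, black lines are class medians and the dashed line is the median of all 13957 genes, and no error bars exist because the table holds 1 mean per gene. The 3 HSP90 genes stand at the top, and the DNAJB and DNAJC medians lie close to the median of all genes.

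DNAJ genes had a lower median than the HSPA and HSPH genes and the HSP90 genes. It was 5.79 CPM per kb over 37 genes, and only DNAJA1 was in the highest 10% of the table. DNAJA1, a cytosolic partner of HSPA8, had 106 CPM per kb, 8.55 times its relative DNAJA2 with 12.4. The ratio was 5.98 per kb of the longest transcript and 4.61 without division by length. Per kb of gene length, DNAJA1 was also above HSPA9, HSPA4, HSPA1A and HSPA1B. Without division by length, DNAJA1 had 282 CPM, below HSPA9 with 571 and HSPA4 with 297. It remained above HSPA1A with 124 CPM and HSPA1B with 78.5. DNAJA3, which works in mitochondria, had 9.85 CPM per kb, and DNAJA4 had 0.352, the lowest level of all members. DNAJB genes had a median of 5.63 CPM per kb over 9 genes. DNAJB1 (HSP40), the inducible DNAJ protein best known for activating HSP70, had 28.5 CPM per kb. DNAJB6, which suppresses aggregation of polyglutamine proteins, had 14.7. The order of these genes turned with the length, since DNAJB6 was 1.14 times DNAJB1 per kb of the longest transcript and 2.13 times without division by length. DNAJB12 and DNAJB14, tail-anchored in the membrane of the endoplasmic reticulum, had 10.4 and 2.02 CPM per kb. DNAJB4 had 4.002 CPM per kb, the lowest of the inducible members.

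The 24 DNAJC genes form the most diverse class, sharing only the J domain. Their median was 5.36 CPM per kb, with 12 of 24 above the median of all genes. DNAJC5, the cysteine string protein of secretory vesicles, was the highest of them per kb of gene length, with 32.1 CPM per kb. It was followed by DNAJC8, a protein of the spliceosome, with 31.2 CPM per kb. Without division by length, DNAJC10 with 183 CPM was above DNAJC5 with 172. DNAJC7, which binds both HSP70 and HSP90, had 7.60 CPM per kb. DNAJC27 and DNAJC22 were the lowest with 0.667 and 0.558 CPM per kb.

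Members were then grouped into inducible and constitutive genes by general knowledge of the heat shock response. Of 12 genes listed as inducible, 11 were in the table, and HSPA6 was not among its rows. Their median was 42.2 CPM per kb and 10 of 11 were above the median of all genes. The exception was DNAJB4. The 13 constitutive genes, in 14 rows because of HSPA14, had a median of 14.3 CPM per kb with 12 of 14 rows above the median of all genes. The exceptions were DNAJB14 and the ENSG00000284024 row of HSPA14. The medians differed by 1.56 on the log2 scale, or 2.95-fold, with inducible genes higher. The ranges overlapped almost completely, from 4.002 to 664 CPM per kb for inducible and from 2.02 to 824 CPM per kb for constitutive genes. The lists also differed in gene length. Inducible genes had a median length of 2737 bases against 5206 bases, and without division by length the difference between medians was 0.40 on the log2 scale. Median exon numbers of the canonical transcripts were 4 and 11.

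Within families the direction was not uniform. The constitutive gene was higher for HSPA8 against HSPA1A and HSPA1B. It was also higher for HSPA4 against HSPH1, by 1.93 times per kb of gene length and 1.17 times without division by length. The constitutive DNAJB6 was 3.68 times the inducible DNAJB4 per kb of gene length. That ratio was 5.42 per kb of the longest transcript and 14.9 without division by length. The inducible gene was higher for DNAJA1 against DNAJA2. The inducible BAG3 was 2.75 times BAG1, which is on neither list, per kb of gene length, 1.59 times per kb of the longest transcript and 1.06 times without division by length.

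**Figure D3:**
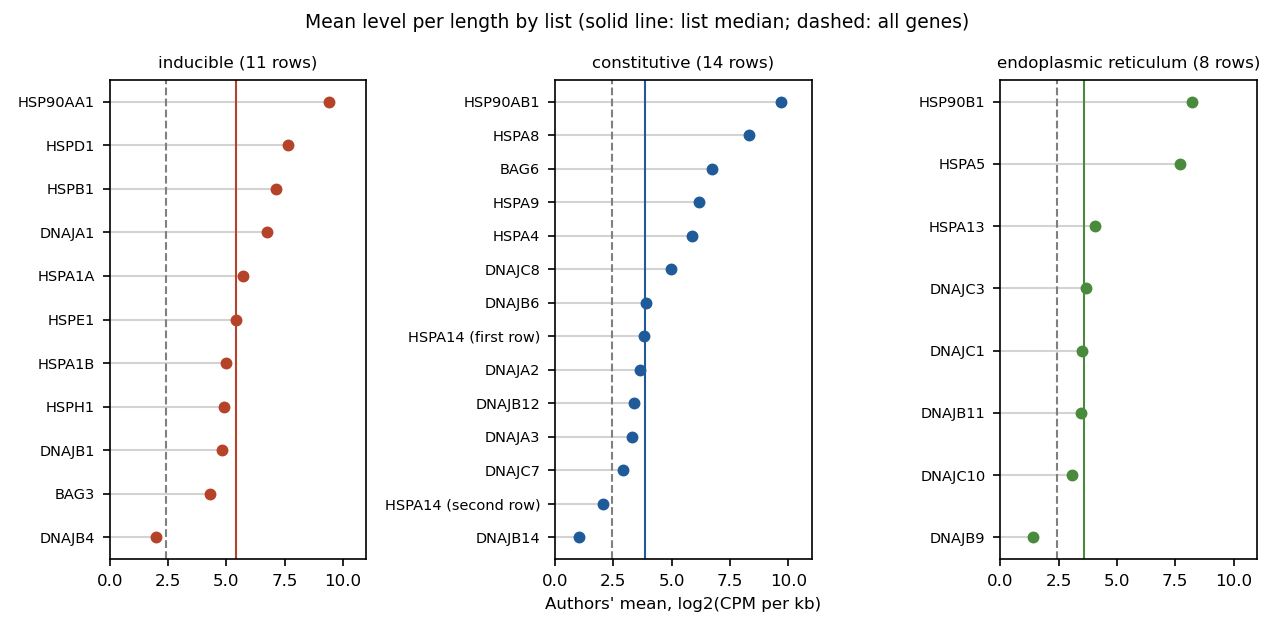
Mean level of each inducible, constitutive and endoplasmic reticulum gene, as log2 of CPM per kb, with the median of the list as a solid line and the median of all genes as a dashed line. The inducible median (5.40) is above the constitutive median (3.84), and both lists span most of the axis.

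**Figure D4:**
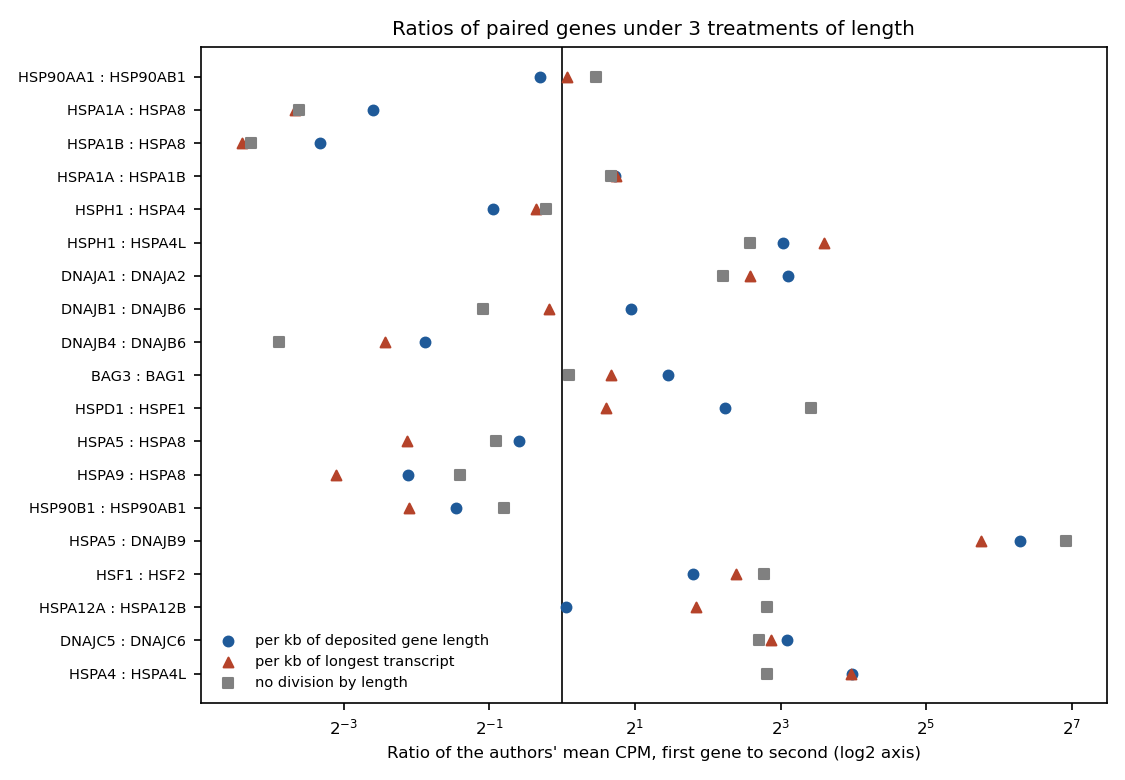
Ratio of the authors' mean CPM of the first gene to the second in 19 pairs, on a log2 axis, divided by deposited gene length (circles), by the longest transcript (triangles) or not divided (squares). HSP90AA1 against HSP90AB1 and DNAJB1 against DNAJB6 cross 1, while the HSPA1 genes stay below HSPA8 and DNAJA1 stays above DNAJA2 in each case.

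By compartment, the 8 genes listed for the endoplasmic reticulum had a median of 12.2 CPM per kb. The list held proteins with a known role in its lumen or translocon, and DNAJB12 and DNAJB14, which face the cytosol, were on the constitutive list instead. Below HSP90B1 and HSPA5 came HSPA13 with 16.8 CPM per kb. Of the J proteins of this compartment, DNAJC3 had 12.96 CPM per kb, DNAJC1 had 11.4 CPM per kb, DNAJB11 11.1, the disulfide reductase DNAJC10 (ERdj5) 8.35 and DNAJB9 (ERdj4) 2.64. HSPA5 was therefore 78.5 times DNAJB9 (121 times without division by length), the J protein that holds it on the stress sensor IRE1. The order of DNAJC10 turned with the length. Without division by length it had 183 CPM, above HSPA13 with 69.8 and DNAJC3 with 72.5. Mitochondrial members, 9 of 10 listed, had a median of 9.85 CPM per kb. Below HSPD1, HSPA9 and HSPE1 came DNAJC11, a protein of the cristae junction machinery, with 12.2 CPM per kb. DNAJC15 and DNAJC19, which belong to the import motor family, had 5.79 and 3.69 CPM per kb. DNAJC4 had 4.75 and DNAJC30 had 2.40. DNAJC28 was not among the rows.

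BAG6, a large protein that guards tail-anchored and misfolded proteins in the cytosol, had 107 CPM per kb and was the highest BAG gene. BAG3 had 19.9 CPM per kb, BAG2 10.52, BAG1 7.22, BAG5 6.66 and BAG4 3.82. Without division by length, BAG2 with 70.0 CPM was above BAG3 with 54.4. HSF1, the main factor of the heat shock response, had 26.0 CPM per kb, and HSF2 had 7.44. HSF1 was therefore 3.49 times HSF2 per kb of gene length, 5.26 times per kb of the longest transcript and 6.87 times without division by length.

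Other chaperone genes were taken from a list of 42, of which 41 were in the table and CRYAB was not. Their median was 26.7 CPM per kb, and 35 of 41 were above the median of all genes. The 8 subunits of the cytosolic chaperonin CCT had levels within a narrow range, from 71.3 to 137 CPM per kb, in contrast to the 24 DNAJC genes, which ranged from 0.558 to 32.1 CPM per kb. The 6 prefoldin genes, which pass clients to CCT, ranged from 17.5 to 148 CPM per kb. The 10 cochaperones of HSP70 and HSP90 ranged from 3.81 CPM per kb for SUGT1 to 122 for the kinase adaptor CDC37, with a median of 28.7.

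Pseudogenes matched by symbol were left out of the members, but they can take reads of their parents. There were 21 of them in the table. The summed CPM of 5 HSPD1 pseudogenes was 26.7% of the CPM of HSPD1, and that of 3 HSPE1 pseudogenes was 34.4% of the CPM of HSPE1. For HSP90AA1 and HSP90AB1 the share was 7.75% and 7.62%, and it was between 0.409% and 3.67% for the other 5 parents. HSPD1P1 alone stood at 142 CPM. Of the 75-base windows of the HSPD1 transcript, 11.1% were found letter for letter in another gene. For HSPE1 it was 40.4%, many of them in the readthrough gene HSPE1-MOB4. In 37 of 68 members no such window was found in any other gene, and in 10 of 68 the share was above 10%.

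**Figure D5:**
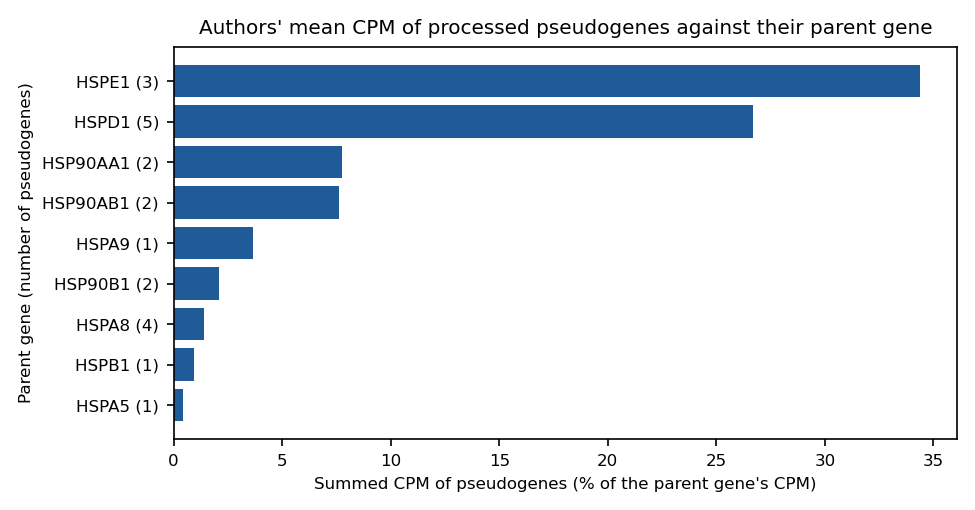
Summed CPM of processed pseudogenes as a percentage of the CPM of the parent gene, from the authors' means, with the number of pseudogenes in parentheses. HSPE1 (34.4%) and HSPD1 (26.7%) stand apart from the other 7 parents, which are at 7.75% or less.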

How the data were processed

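RNA of 2 cordycepin and 2 DMSO samples was sequenced as 75 bp paired-end reads. According to the study's methods, reads were mapped to GRCh38.p13 and counted with rsubread, while the submitters' processing notes name TopHat, HTSeq, DESeq and Cufflinks with hg38. The authors' deposited table gives 1 mean log2 CPM and a gene length for each gene. Its log2 fold change, F statistic, p-value and adjusted p-value are the authors' own comparison and were not used. Columns of single samples numbered 0, so the planned count test between groups could not be made. For the same reason, library depths are unknown and no interval is given.

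CPM was divided by the length in the table, in kb. That length was within 5% of the summed exons of GENCODE release 44 for 53 of 68 members. Members outside this range included HSP90B1, DNAJB1, HSPD1 and HSPA5, with ratios of 0.36, 0.45, 0.54 and 0.60. The longest transcript was taken from GENCODE release 44, so that alternative changed the annotation as well as the kind of length. Both HSPA14 rows were kept. Of 79 protein-coding genes that match the symbol rule, 13 were not among the rows. Members and lists were chosen with earlier results of these data known. Named genes are those on the lists, all BAG and HSF genes, the 5 highest and the 5 lowest members and those with a feature shared by 5 or fewer; other members were named after their values were seen. The motif search was tested on simulated sequences. Alternatives were the longest transcript, no division by length, a filter on low values and a gapped motif. Python 3.11.15, numpy 2.4.6, pandas 2.3.3 and matplotlib 3.10.9 were used.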

Additional observations from a re-analysis of the deposited data

How the results depend on the processing

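Alternatives were compared without a test, as the table holds 1 mean per gene and no spread. The inducible median exceeded the constitutive median by 1.56 on the log2 scale, and by 1.02 with the longest transcript and 0.40 without division by length. It was the same with the lowest 25% of mean expression left out, which removed none of these 25 rows. With alternatives added after seeing the data, it was 1.85 with pseudogene reads added to the parent and 1.52 with 1 row of HSPA14. The distance of each class median from the median of all genes is given next for the longest transcript and then without length. It was 7.002 and 6.68 for HSP90, 2.12 and 1.72 for HSPA and HSPH, 1.52 and 1.45 for DNAJA, 0.043 and 0.47 for DNAJB and 0.73 and 1.14 for BAG. It was 0.89 and 1.57 for the endoplasmic reticulum and 0.79 and 1.37 for mitochondria. DNAJC turned from -0.013 to 0.29 and 0.19, and the cause was not tested. The gapped motif was found in 7 members against 6. No paired analysis was possible because the table holds no values per sample, and for the same reason no replicate could be left out and no other normalization or count filter was run.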
